A study of Mus musculus with 12 samples.

Results

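RNA of B1 cells sorted from the peritoneal cavity of old mice was compared with that of B1 cells from young mice, across all 18193 genes that the arrays measured with a probe set of 1 gene symbol. The comparison used 6 of the 12 arrays of the series, 3 titled old and 3 titled young, chosen by their sample titles alone. All mice were female C57BL/6, with no treatment or engineered allele named in the labels. The old mice were more than 15 months of age and the young mice 8 weeks. The titles call the cells B1a and the cell type field calls them B1. Cells were sorted by flow cytometry straight from the tissue, without culture. The sources used here name no surface markers for the sort and do not say whether the 3 arrays of a group are separate mice, pooled mice or repeated sorts. A p-value therefore measures the spread among these samples and no more. The other 6 arrays, 3 of old splenic follicular B cells (FO) and 3 of old splenic age-associated B cells (ABC), entered the fit for its estimate of spread and are used below to define a group of genes.

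B1 cells are a self-renewing lineage of B cells that lives mainly in the peritoneal and pleural cavities and secretes much of the natural IgM of serum. B1a cells carry CD5 together with CD43 and renew themselves after the first weeks of life with little new input from the bone marrow, so that some clones can grow large with age. ABC are B cells that accumulate in old mice and express the transcription factor T-bet, with CD11c on many of them.

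Before any comparison, 1 array stood apart. Across genes, log2 values of old B1 replicate 3 correlated with those of the other 5 B1 arrays at Pearson's r of 0.958 to 0.961, while the other 10 pairs of B1 arrays lay between 0.992 and 0.997. Its 75th percentile of intensity was 346 and that of the other 5 B1 arrays 400.1 to 411, although its median (44.4) was near theirs (46.1 to 48.5). Between replicate 3 and the mean of old replicates 1 and 2, 2981 genes differed at least 2-fold, 1284 of them higher and 1697 lower in replicate 3. Between old replicates 1 and 2 the number was 174. Called differences, counts and lists are therefore given with all arrays and without old replicate 3. Below, levels are log2 intensities of 1 array, differences are old minus young on the log2 scale, ± is the standard error of the limma fit, n is 3 arrays a group (2 old arrays where replicate 3 was left out), and a gene was called at a limma Benjamini-Hochberg adjusted p under 0.05. Levels of different probe sets are not set against each other.

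Few genes were called between the ages. With all arrays 53 genes were called, 0.291% of those tested. Of these 29 were higher in old cells (0.159%) and 24 lower (0.132%). A 2-fold difference or more was met by 47, with 28 higher and 19 lower. Without old replicate 3, 165 genes were called (0.907%), with 110 higher (0.605%) and 55 lower (0.302%). A 2-fold difference or more was met by 122 of these, 82 higher and 40 lower. All 53 genes of the first fit were called again in the second, each in the same direction, and made up 32.1% of its 165. At an unadjusted p under 0.05 the numbers were 1377 with all arrays and 1437 without replicate 3. Of the 165 genes, replicate 3 itself lay beyond the range of the young arrays on the same side as its group in 110, within that range in 11, and beyond it on the opposite side in 44. The count also moved with other arrays. With all arrays it was 17 without young replicate 1 and 20 without young replicate 2 or 3. Without old replicate 3 it fell from 165 to 69, 79, 92 and 93 when old replicate 1, old replicate 2, young replicate 1 or young replicate 2 was left out as well. A fit of the 6 B1 arrays alone called 2 genes, and 238 once replicate 3 was left out of it.

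**Figure D1:**
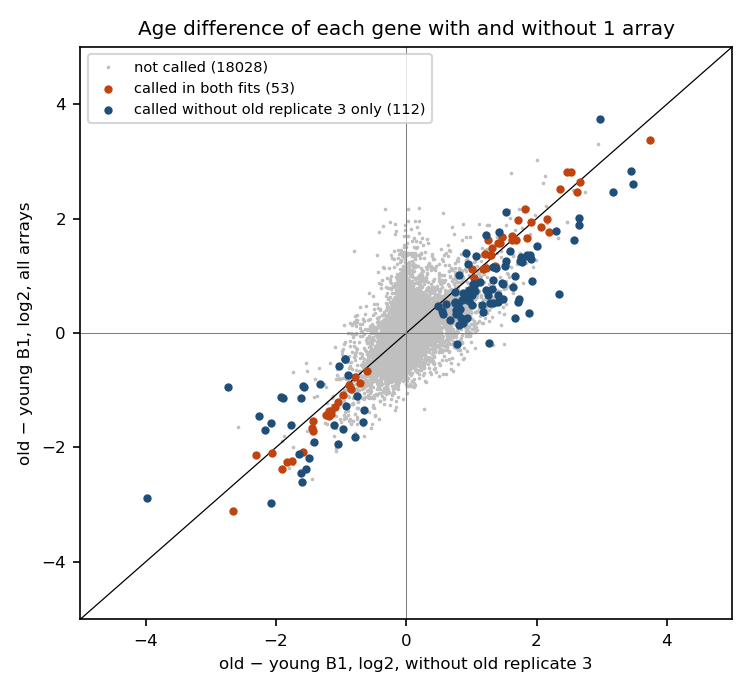
Age difference (old minus young B1 cells, log2) of each of the 18193 genes with all arrays (vertical axis) and without old replicate 3 (horizontal axis), with the line of equality. Each point is a gene, and the 53 genes called in both fits lie near the line, while many of the 112 called only without replicate 3 lie nearer 0 on the vertical axis.

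The change with the smallest p was that of Slc41a2, which encodes a magnesium transporter. Its level was 11.13, 10.91 and 10.92 in the old arrays and 8.21, 8.56 and 8.28 in the young. The groups were far apart with little spread in either, a 6.22-fold difference (2.64 ± 0.13, adjusted p = 2.8e-05; 2.67 ± 0.15 without replicate 3, adjusted p = 1.0e-04). The call held in each of the 6 fits that leave out 1 B1 array. Of all 53 called genes, 15, 16 and 18 kept their call without young replicates 1, 2 and 3. The numbers were 35, 43 and 53 without old replicates 1, 2 and 3. Gene by gene this was examined for the 38 chosen for naming, some of them after their values had been seen. Of these 38, 11 kept their call in all 6 fits. These were Slc41a2, Osbpl6, Ccdc110, Lair1, Bnip5, Marveld3, Lacc1 and Mageh1, which rose, and Edaradd, Rasgef1a and Frat1, which fell. Another 23 lost it whenever any young array was left out. Taken array by array, 26 of the 38 lost their call without young replicate 1, 25 without young replicate 2 and 25 without young replicate 3, and 13, 8 and 0 without old replicates 1, 2 and 3. Over these fits the difference of each of the 38 genes kept its sign. This was fixed in advance, since in each of them the old and young arrays do not overlap.

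Cubn, Met, F11r, Marveld3 and Lair1 were among the other genes that rose. Cubn, cubilin, an endocytic receptor best known for taking up vitamin B12 bound to intrinsic factor, was at 9.75, 8.72 and 10.27 in old cells and 6.99, 6.52 and 6.81 in young cells. The difference was 2.81 ± 0.37 (adjusted p = 0.0116), or 2.46 ± 0.34 without replicate 3 (adjusted p = 0.00858), and a separate probe set gave 2.59. Met, the receptor tyrosine kinase for hepatocyte growth factor, was at 8.20, 8.32 and 8.73 in old and 5.73, 6.37 and 5.57 in young cells (2.52 ± 0.41, adjusted p = 0.0365; 2.37 ± 0.45 without replicate 3, adjusted p = 0.0462). F11r, the junctional adhesion molecule JAM-A, was at 8.10, 7.98 and 9.08 in old and 6.64, 5.78 and 6.26 in young cells (2.16 ± 0.34, adjusted p = 0.0341; 1.82 ± 0.30 without replicate 3, adjusted p = 0.0250). In all 3 genes the old and young arrays did not overlap, and replicate 3 was the highest. Each of these 3 calls was lost when any 1 young array was left out, with adjusted p up to 0.0708 for Cubn, 0.202 for Met and 0.174 for F11r. Met also lost its call without old replicate 1 or 2, and F11r without old replicate 1. Marveld3, a tight junction protein, rose by 2.46 ± 0.28 (adjusted p = 0.00686; 2.62 ± 0.30 without replicate 3, adjusted p = 0.00314), from a young level of 2.31 to 3.42, where the signal is dim. Lair1, an inhibitory receptor that binds collagen, was at 7.40, 7.09 and 7.86 in old and 5.61, 5.72 and 5.99 in young cells. It rose by 1.68 ± 0.18 (adjusted p = 0.00596), or by 1.47 ± 0.14 without replicate 3 (adjusted p = 0.00124). Lair1 was the 1 called gene among 17 measured inhibitory receptors and phosphatases. Of all genes 0.291% were called with all arrays and 0.907% without replicate 3.

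Osbpl6, Dgat2, Galnt6, Fxyd6 and Asph were called higher too. Osbpl6, an oxysterol-binding protein relative, was at 7.33, 7.11 and 6.15 in old and 3.49, 3.73 and 3.22 in young cells (3.38 ± 0.38, adjusted p = 0.00661; 3.74 ± 0.35 without replicate 3, adjusted p = 0.00101). On 2 of the 3 young arrays it lay under the 25th percentile of the array, so that the size of this difference is not exact. Dgat2, which catalyses the last step of triglyceride synthesis, was at 9.95 to 10.22 on the 3 old arrays and at 8.22, 8.72 and 8.34 on the young (1.63 ± 0.25, adjusted p = 0.0307; 1.68 ± 0.28 without replicate 3, adjusted p = 0.0250). Galnt6, an enzyme that starts O-linked glycans, rose by 1.66 ± 0.21 (adjusted p = 0.0116; 1.85 ± 0.20 without replicate 3, adjusted p = 0.00241). Fxyd6, a regulator of the sodium pump, was at 8.28, 6.20 and 8.12 in old and 4.27, 5.01 and 4.86 in young cells (2.82 ± 0.45, adjusted p = 0.0341; 2.53 ± 0.47 without replicate 3, adjusted p = 0.0404), with old replicate 2 well below the other old arrays. Asph, an aspartyl hydroxylase of the endoplasmic reticulum, was at 10.95, 11.02 and 11.74 in old and 9.38, 9.10 and 9.30 in young cells (1.97 ± 0.28, adjusted p = 0.0200; 1.72 ± 0.27 without replicate 3, adjusted p = 0.0161).

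Among genes of immune effector and regulatory function, Tnfsf10, the death ligand TRAIL, was at 9.90, 9.39 and 8.39 in old and 7.39, 7.45 and 7.54 in young cells. Its difference was 1.77 ± 0.29 (adjusted p = 0.0419), and 2.19 ± 0.16 (adjusted p = 4.1e-04) without replicate 3, the lowest old array. Its call was lost when any other B1 array was left out (adjusted p up to 0.206). Spic, an Ets-family transcription factor related to PU.1, rose by 1.57 ± 0.21 (adjusted p = 0.0120), or 1.43 ± 0.21 without replicate 3 (adjusted p = 0.0131). Lacc1, an enzyme of purine metabolism studied mostly in macrophages, rose by 1.48 ± 0.15 (adjusted p = 0.00486), or 1.32 ± 0.12 without replicate 3 (adjusted p = 0.001), and was at 9.70, 9.52 and 10.09 in old against 8.37, 8.11 and 8.38 in young cells. Ccdc110 (1.94 ± 0.18), Bnip5 (1.58 ± 0.18), Mageh1 (1.37 ± 0.14), Ptpn14, a tyrosine phosphatase (1.36 ± 0.23), and Nfib, a transcription factor (0.96 ± 0.15), were called higher as well. Without replicate 3 their differences were 1.91 ± 0.21, 1.41 ± 0.16, 1.28 ± 0.15, 1.30 ± 0.25 and 1.04 ± 0.16, and each was called again. The calls of Ptpn14 and Nfib were lost when any B1 array other than old replicate 3 was left out (adjusted p up to 0.203 and 0.173), and that of Dgat2 likewise (up to 0.167). Lacc1, Marveld3, Mageh1, Ptpn14 and Nfib were picked for naming after their values had been seen.

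**Figure D2:**
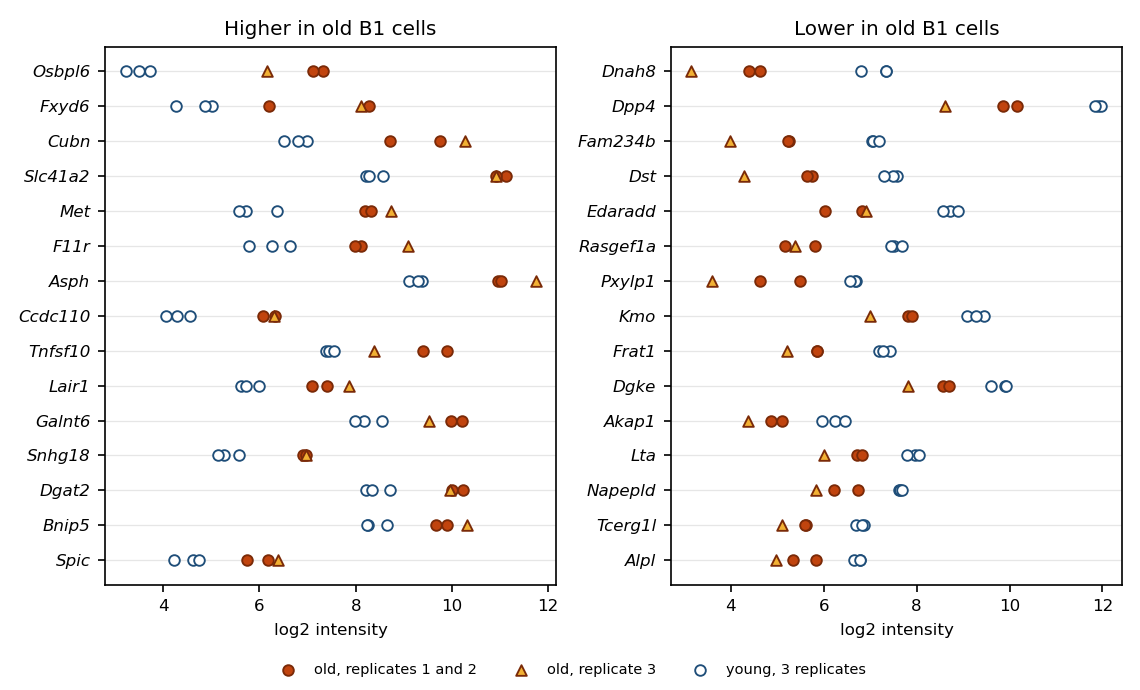
Log2 intensity on each of the 6 B1 arrays for the 15 genes with the largest called rise (left) and the 15 with the largest called fall (right), among genes with no overlap between groups. Genes with both group means below the median of all values, predicted genes and clone names were passed over. Filled circles are old replicates 1 and 2, triangles old replicate 3 and open circles the young arrays; in every gene shown the old arrays lie on 1 side of the young ones, as the choice of genes requires, and in Slc41a2 the 3 old arrays lie within 10.91 to 11.13.

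Among the genes that fell was Dpp4, which encodes CD26, a surface peptidase that trims chemokines. It was at 9.85, 10.15 and 8.60 in old and 11.90, 11.98 and 11.83 in young cells, so that the old arrays were all lower and spread more widely. The difference was -2.37 ± 0.33 (adjusted p = 0.0166), or -1.90 ± 0.17 (adjusted p = 0.001) without replicate 3, and 3 further probe sets of the gene gave -1.57, -2.49 and -2.89. Leaving out any young array ended the call (adjusted p up to 0.0861). Dnah8, an axonemal dynein heavy chain, was at 4.38, 4.63 and 3.15 in old and 7.34, 6.81 and 7.35 in young cells (-3.12 ± 0.44, adjusted p = 0.0200; -2.66 ± 0.39 without replicate 3, adjusted p = 0.0129), with 1 old array under its 25th percentile.

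Of the genes with immune roles, Ccr7, the chemokine receptor that guides lymphocytes to lymph nodes and T cell zones, was at 9.44, 9.60 and 9.07 in old and 10.42, 10.84 and 10.46 in young cells. It fell by 1.20 on the log2 scale (SE 0.19, adjusted p = 0.0307), and by 1.05 without replicate 3 (SE 0.18, adjusted p = 0.0280). It was the 1 called member of 22 measured chemokine receptors, integrins and homing genes. The same gene was the 1 call among 14 follicular and marginal zone genes and among 12 measured dendritic cell markers. Of all genes 0.291% were called with all arrays and 0.907% without replicate 3, and nothing is read from these counts. Lta, lymphotoxin alpha, a cytokine of the tumour necrosis factor family, was at 6.72, 6.83 and 6.01 in old and 7.97, 7.79 and 8.06 in young cells (-1.42 ± 0.21, adjusted p = 0.0238; -1.16 ± 0.16 without replicate 3, adjusted p = 0.00804). Both calls were lost when any 1 young array was left out (adjusted p up to 0.144 for Ccr7 and 0.148 for Lta). Edaradd, the adaptor of the ectodysplasin receptor, was at 6.83, 6.02 and 6.91 in old and 8.71, 8.56 and 8.90 in young cells (-2.14 ± 0.24, adjusted p = 0.00661; -2.30 ± 0.25 without replicate 3, adjusted p = 0.00241). Ms4a4c, of the family of CD20, fell by 1.30 on the log2 scale (SE 0.17, adjusted p = 0.0127), and Apobec1, an RNA-editing cytidine deaminase, by 0.67 (SE 0.11, adjusted p = 0.0449). Without replicate 3 their differences were -1.10 ± 0.14 (adjusted p = 0.00483) and -0.60 ± 0.12 (adjusted p = 0.0493). The call of Ms4a4c was lost without any 1 young array, and that of Apobec1 without any B1 array other than old replicate 3 (adjusted p up to 0.0861 and 0.237). Ms4a4c and Apobec1 were picked for naming after their values had been seen.

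Kmo, Rasgef1a, Frat1, Dgke, Akap1, Napepld and Alpl also fell. Kmo, kynurenine monooxygenase of tryptophan breakdown, was at 7.81, 7.89 and 6.99 in old and 9.09, 9.46 and 9.28 in young cells (-1.72 ± 0.21, adjusted p = 0.0103; -1.43 ± 0.13 without replicate 3, adjusted p = 0.00101). Rasgef1a, an exchange factor for Ras-family proteins, was at 5.80, 5.17 and 5.39 in old and 7.51, 7.45 and 7.69 in young cells (-2.10 ± 0.24, adjusted p = 0.00686; -2.07 ± 0.27 without replicate 3, adjusted p = 0.00703). Frat1, a GSK3-binding protein of Wnt signalling, fell by 1.66, Dgke, a diacylglycerol kinase, by 1.45, Akap1, an anchor of protein kinase A, by 1.44, Napepld, a lipase of anandamide synthesis, by 1.39 and Alpl, an alkaline phosphatase, by 1.35. Their adjusted p ran from 0.00780 (Frat1) to 0.0341 (Dgke). Without replicate 3 the differences of these 5 were -1.44, -1.18, -1.23, -1.17 and -1.15, and each was called again. Of 61 of the named genes, 35 had other probe sets with 1 symbol, 75 in all. Without replicate 3, 68 of the 75 had a difference of the same sign as the probe set used, and so did all 30 whose mean over the 12 arrays was at or above the median of all values.

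Leaving out old replicate 3 added 112 calls, and the level of replicate 3 sets how they can be read. In some it was nearer to the young level but still beyond it. Btbd11 was at 9.63 and 9.99 in old replicates 1 and 2, 7.18 in replicate 3 and 6.22 to 6.43 in young cells (3.49 ± 0.38, adjusted p = 0.00263; 2.61 ± 0.64 with all arrays, adjusted p = 0.194). Csrnp3 was at 5.99, 6.52 and 4.11 in old and 3.04 to 3.13 in young cells (3.17 ± 0.19, adjusted p = 1.0e-04; 2.46 ± 0.48 with all arrays, adjusted p = 0.0885), all 3 young values being under the 25th percentile of their arrays. Laptm4b, a lysosomal membrane protein, was at 11.01, 10.96 and 9.78 in old and 9.60 to 9.75 in young cells (1.32 ± 0.10, adjusted p = 4.6e-04; 0.93 ± 0.26 with all arrays, adjusted p = 0.312). In others replicate 3 lay on the far side of the young arrays. Pigr, the polymeric immunoglobulin receptor, was at 9.40, 10.09 and 5.15 in old and 7.71 to 8.03 in young cells (1.89 ± 0.19, adjusted p = 0.00171; 0.35 ± 0.97 with all arrays, adjusted p = 0.929). Kcnj5, a potassium channel, was at 10.05, 10.42 and 5.24 in old and 7.81 to 7.96 in young cells (2.35 ± 0.23, adjusted p = 0.00149; 0.68 ± 1.05 with all arrays, adjusted p = 0.858). In genes of this second kind replicate 3 lay on the other side of the young arrays from old replicates 1 and 2.

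In Bmpr1a and Fcgr4 replicate 3 lay further from the young arrays than the other old arrays did, and neither was called with all arrays. Bmpr1a, a type I receptor for bone morphogenetic proteins, was at 8.16, 7.93 and 10.30 in old and 4.42, 5.17 and 5.61 in young cells. The 3 old arrays all lay above the young, by 3.73 ± 0.65 with all arrays (adjusted p = 0.0539) and 2.98 ± 0.52 without replicate 3 (adjusted p = 0.0298). Of its 5 other probe sets, 3 gave 3.09, 3.33 and 3.35 with all arrays, and the 2 dimmest gave -0.06 and 1.12. Acvrl1, another type I receptor of that family (1.74 ± 0.24, adjusted p = 0.00913; 1.26 ± 0.37 with all arrays, adjusted p = 0.328), and Smad1, which carries its signal (0.79 ± 0.12, adjusted p = 0.0131; 0.35 ± 0.30 with all arrays, adjusted p = 0.734), were called without replicate 3. In replicate 3 Acvrl1 was at 5.36, near the young 5.01 to 5.12, and Smad1 was at 9.09, below the young 9.41 to 9.77. Fcgr4, an activating IgG Fc receptor, was at 10.18, 9.90 and 11.82 in old and 8.40 to 8.58 in young cells (1.53 ± 0.20 without replicate 3, adjusted p = 0.00690; 2.12 ± 0.41 with it, adjusted p = 0.0874). Fcgr1, the high-affinity one, was at 6.97, 6.88 and 4.91 in old and 5.36 to 6.06 in young cells (1.16 ± 0.22, adjusted p = 0.0436; 0.49 ± 0.46 with all arrays, adjusted p = 0.754), so that replicate 3 was below the young arrays. Laptm4b, Smad1, Fcgr4 and Fcgr1 were picked for naming after their values had been seen.

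Cxcl13, a chemokine that draws B cells through CXCR5, was at 12.42, 12.67 and 10.95 in old and 10.20, 10.84 and 11.26 in young cells. It was called without replicate 3 (1.78 ± 0.34, adjusted p = 0.0456) and not with it (1.25 ± 0.45, adjusted p = 0.524). Tbx21, which encodes T-bet, was at 6.05, 6.75 and 5.89 in old and 5.34, 4.87 and 4.99 in young cells. Its groups did not overlap, and it was called without replicate 3 (1.33 ± 0.26, adjusted p = 0.0469) but not with all arrays (1.16 ± 0.25, adjusted p = 0.135). It was the 1 called gene of 17 measured T-bet and CD11c B cell genes, of which 7 had both old replicates 1 and 2 above all young arrays and 3 had both below. Over all genes 0.907% were called without replicate 3, and 14.0% lay above in this way and 13.1% below. With all arrays 0 of the 17 were called, 4 lay above and 1 below, beside 0.291%, 6.14% and 7.75% of all genes. Their median difference was 0.03 with all arrays and 0.17 without replicate 3. Itgax (CD11c) was at 6.28, 6.65 and 4.62 in old and 5.37 to 6.56 in young cells, and Itgam (CD11b) at 6.76, 6.98 and 6.10 in old and 6.30 to 6.70 in young cells. Neither was called in either fit. Creld2, a chaperone of the endoplasmic reticulum, was at 10.97, 10.76 and 11.49 in old and at no more than 10.11 in young cells, with an adjusted p of 0.0511 with all arrays and 0.0234 without replicate 3.

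Without replicate 3 the genes called lower included Stat4, Il12a, Cdk6, Runx3, Myb, Ezh2 and Cdkn2c. Stat4, which transmits interleukin 12 signals, was at 8.30 and 7.84 in old replicates 1 and 2, 5.05 in replicate 3 and 9.46 to 9.88 in young cells (-1.60 ± 0.21, adjusted p = 0.00744; -2.60 ± 0.65 with all arrays, adjusted p = 0.210). Il12a, the p35 chain of interleukin 12, was at 6.18, 6.05 and 7.54 in old and 8.09 to 8.53 in young cells (-2.17 ± 0.18, adjusted p = 7.4e-04; -1.69 ± 0.34 with all arrays, adjusted p = 0.0987). Cdk6, a kinase of cell cycle entry, was at 6.99, 7.22 and 4.59 in old and 8.44 to 8.79 in young cells (-1.54 ± 0.19, adjusted p = 0.00423; -2.38 ± 0.55 with all arrays, adjusted p = 0.172). Runx3, a transcription factor, was at 8.15, 8.09 and 6.02 in old and 9.07 to 9.11 in young cells (-0.98 ± 0.14, adjusted p = 0.0108; -1.68 ± 0.45 with all arrays, adjusted p = 0.262). In these 4 genes all 3 old arrays lay below the young. Myb, a transcription factor of progenitor and dividing cells, was at 9.93 and 9.46 in old replicates 1 and 2 and 11.68 in replicate 3, on either side of the young 11.15 to 11.49 (-1.58 ± 0.22 without replicate 3, adjusted p = 0.0108; -0.92 ± 0.46 with it, adjusted p = 0.685). Ezh2, a histone methyltransferase, was at 9.07, 8.65 and 10.20 in old and 9.81 to 9.94 in young cells (-1.03 ± 0.13, adjusted p = 0.00565; -0.58 ± 0.30 with all arrays, adjusted p = 0.693). Cdkn2c, an inhibitor of CDK4 and CDK6, was at 7.74, 7.73 and 9.18 in old and 8.60 to 8.75 in young cells (-0.94 ± 0.17, adjusted p = 0.0376; -0.46 ± 0.33 with all arrays, adjusted p = 0.715). Stat4, Cdk6, Runx3 and Myb were picked for naming after their values had been seen.

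Nfkb2, which encodes the p100 precursor of the alternative NF-kappaB pathway, was at 9.89, 9.55 and 8.67 in old and 10.35, 10.46 and 10.59 in young cells. All old arrays were lower, and the gene was called without replicate 3 (-0.75 ± 0.13, adjusted p = 0.0275) and not with it (-1.10 ± 0.25, adjusted p = 0.160). It was the 1 call among 17 measured NF-kappaB subunits and targets, beside 0.907% of all genes called without replicate 3. The median difference of these 17 was -0.28 with all arrays and -0.15 without replicate 3, beside -0.01 and 0.00 over all genes. Nfkb2 and Lta are themselves textbook targets of NF-kappaB. Lta stood outside that list and was chosen for display after its values had been seen. The 250 bases before the start of Nfkb2 and Lta are shown as the stretch in which such sites are usually sought. They are RefSeq sequences of build GRCm38.p6, 5′ to 3′ on the strand of the gene. Nfkb2 has 3 start sites in the table and the one furthest upstream is shown, chr19:46304487-46304736 (plus strand). Lta lies at chr17:35205352-35205601 (minus strand). Capitals mark matches to the 10-base kappaB consensus on either strand. Of 32851 promoter windows of this length 3.9% held a match. All 3 windows of Nfkb2 did, with matches in the window shown that begin 39, 38 and 11 bases before the start, the pair furthest upstream overlapping. Lta held none, which says only that these letters are not in this window.
Nfkb2: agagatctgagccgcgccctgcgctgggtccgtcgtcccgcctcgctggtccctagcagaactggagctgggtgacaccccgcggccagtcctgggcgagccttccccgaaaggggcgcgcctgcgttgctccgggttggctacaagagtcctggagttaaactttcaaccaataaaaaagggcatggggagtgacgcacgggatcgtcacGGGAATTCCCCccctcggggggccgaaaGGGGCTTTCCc
Lta: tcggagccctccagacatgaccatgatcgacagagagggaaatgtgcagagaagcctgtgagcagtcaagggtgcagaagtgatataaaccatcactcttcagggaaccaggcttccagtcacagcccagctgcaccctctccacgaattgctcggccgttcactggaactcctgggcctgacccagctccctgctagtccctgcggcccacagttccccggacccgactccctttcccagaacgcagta

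Of 13 measured B1 cell markers 0 were called by limma in either fit. With 0.291% and 0.907% of all genes called, none would be the usual count for a list of this length, and nothing is read from it. Their median difference was 0.09 with all arrays and 0.13 without replicate 3, and their summed intensity was 32166, 33485 and 27081 on the old arrays and 27716 to 28612 on the young. On FO arrays the sum was 3020 to 4548. Spn (CD43) was at 10.72, 10.88 and 9.48 in old and 10.63 to 10.86 in young cells. Sox5 was at 10.39, 10.22 and 10.46 in old and 10.08 to 10.29 in young, Bhlhe41 at 8.55, 8.29 and 8.27 in old and 8.01 to 8.58 in young, and Zbtb32 at 11.62, 11.62 and 11.41 in old and 11.28 to 11.57 in young cells. All 3 encode transcription factors. Cd5 was at 8.64 and 8.70 in old replicates 1 and 2 and 8.68 to 8.73 in young cells, and at 6.76 in replicate 3. Of 14 B cell identity genes 0 were called, with medians of 0.02 in both fits. Ms4a1 (CD20) stood at 13.02 to 13.19 in old and 12.95 to 13.06 in young cells. Pax5 was at 5.41, 5.33 and 4.40 in old and 5.92 to 6.18 in young cells, below all young arrays but not called (-0.97 ± 0.34, adjusted p = 0.495).

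Counts of called genes in the pathways listed are given beside the 0.291% of all genes called with all arrays and 0.907% without replicate 3, shares at which a list of this length usually holds no call, and nothing is read from them. Of 19 measured genes of B cell receptor signalling, 21 of Toll-like receptor sensing, 20 of the type I interferon response, 24 of oxidative phosphorylation, 15 of glycolysis, 16 ribosomal proteins and 14 heat shock proteins, 0 were called in either fit, with median differences between -0.09 and 0.12. Tlr7 was at 9.97 to 10.51 in old and 10.20 to 10.54 in young cells, and Irf4 at 12.60 to 12.83 and 12.71 to 12.80. Of 16 plasma cell and secretion genes 0 were called with all arrays and 1, Creld2, without replicate 3. Of 23 cytokines and chemokines 1 was called lower with all arrays, Lta, and without replicate 3 also Il12a lower and Cxcl13 higher. Of 19 CDK inhibitors and p53 targets 1 was called lower without replicate 3, Cdkn2c. Cdkn2a, which encodes p16 and p19 ARF, was at 5.53, 5.13 and 6.90 in old and 5.37 to 5.64 in young cells, and Cdkn1a (p21) at 8.43, 7.43 and 8.04 in old and up to 7.97 in young cells. Neither was called, and Cdkn2a was above the young range only in replicate 3. Over all 36 lists, 3 distinct genes were called with all arrays and 11 without replicate 3.

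Several genes had old and young arrays far apart and were still not called. Il10, the cytokine for which regulatory B1 cells are known, was at 8.66, 7.12 and 8.82 in old and 6.73, 5.38 and 5.92 in young cells (2.19 ± 0.70, adjusted p = 0.418; 1.87 ± 0.77 without replicate 3, adjusted p = 0.546). Cr2, the complement receptor CD21, was at 7.39, 6.66 and 6.25 in old and 8.64, 9.01 and 8.62 in young cells (-1.99 ± 0.40, adjusted p = 0.0987; -1.73 ± 0.41 without replicate 3, adjusted p = 0.112). Krt18, a keratin, was at 12.30, 11.90 and 12.33 in old and 9.92, 9.99 and 9.95 in young cells (2.22 ± 0.48, adjusted p = 0.137; 2.15 ± 0.54 without replicate 3, adjusted p = 0.147). Lifr, the receptor of leukaemia inhibitory factor, was at 8.18, 8.84 and 8.74 in old and 10.39, 10.29 and 10.47 in young cells (-1.80 ± 0.44, adjusted p = 0.192; -1.87 ± 0.49 without replicate 3, adjusted p = 0.169). In all 4 the groups did not overlap. Over all genes the 3 old arrays lay above the 3 young ones in 6.14% and below them in 7.75%. The standard error comes from the 12 arrays of 4 groups, so spread within FO or ABC enters it. Krt18 is among 14 measured mesothelial and stromal markers. Their summed intensity, which includes Krt18, was 10019, 9179 and 6229 on the old and 3563 to 3915 on the young arrays. The median difference of the 14 was 0.08 with all arrays and 0.07 without replicate 3. Their median log2 level was 4.418, 4.592 and 4.395 on the old arrays and 4.623, 4.812 and 4.736 on the young. Of these 14, 3 lay above all young arrays in old replicates 1 and 2 and 1 below, beside 14.0% and 13.1% of all genes. With all arrays 1 lay above and 0 below, beside 6.14% and 7.75% of all genes. The part of such cells in the level of Krt18 was not tested. Krt18 and Lifr were picked for naming after their values had been seen.

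Markers of other cell types moved between the arrays. Without replicate 3, 16 of 23 measured macrophage and monocyte markers lay above all young arrays in both old arrays and 0 below, against 14.0% and 13.1% of all genes, with a median difference of 0.70. Their summed intensity was 62324 and 60778 on old replicates 1 and 2, 25896 on replicate 3 and 33982 to 54391 on the young arrays. Of these markers 0 were called in either fit, beside 0.291% of all genes with all arrays and 0.907% without replicate 3. Vsig4, a complement receptor of resident macrophages, was at 9.92, 9.96 and 6.47 in old and 7.83, 8.22 and 9.29 in young cells, and Adgre1, another marker of macrophages, at 10.70, 10.78 and 9.04 in old and 9.51, 9.69 and 10.20 in young cells. Of 13 T cell markers 9 lay above and 0 below (median 0.93), with sums of 4056, 2799 and 811 on the old and 1819 to 2352 on the young arrays. Among them Lat, an adaptor of the T cell receptor, was called without replicate 3 (0.80 ± 0.14, adjusted p = 0.0262; 0.13 ± 0.43 with all arrays, adjusted p = 0.942), and Cd3e was at 9.23, 8.68 and 6.12 in old and 7.64 to 8.42 in young cells. Of 10 NK cell and innate lymphoid markers 7 lay above and 0 below (median 0.61), with sums of 2295, 1685 and 433 on the old and 993 to 1282 on the young arrays. With all arrays, 1 of the 23 macrophage, 0 of the 13 T cell and 1 of the 10 NK cell markers lay above the young arrays. In each list 0 lay below. Over all genes 6.14% lay above and 7.75% below. The medians of the 3 lists with all arrays were 0.01, 0.15 and 0.17. Of the macrophage and T cell markers 0 lay under the 25th percentile of any B1 array, and of the NK cell markers 1 to 3 of 10 did. Mast cell markers summed to 5128, 4007 and 2122 on the old and 2391 to 10403 on the young arrays. In bulk samples fewer cells of a type and less RNA per cell cannot be told apart. The part of these cells in the calls made without replicate 3, among them Gzmk, Icos, Fcgr1, Fcgr4, Cxcl13 and Lat, was not tested.

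**Figure D3:**
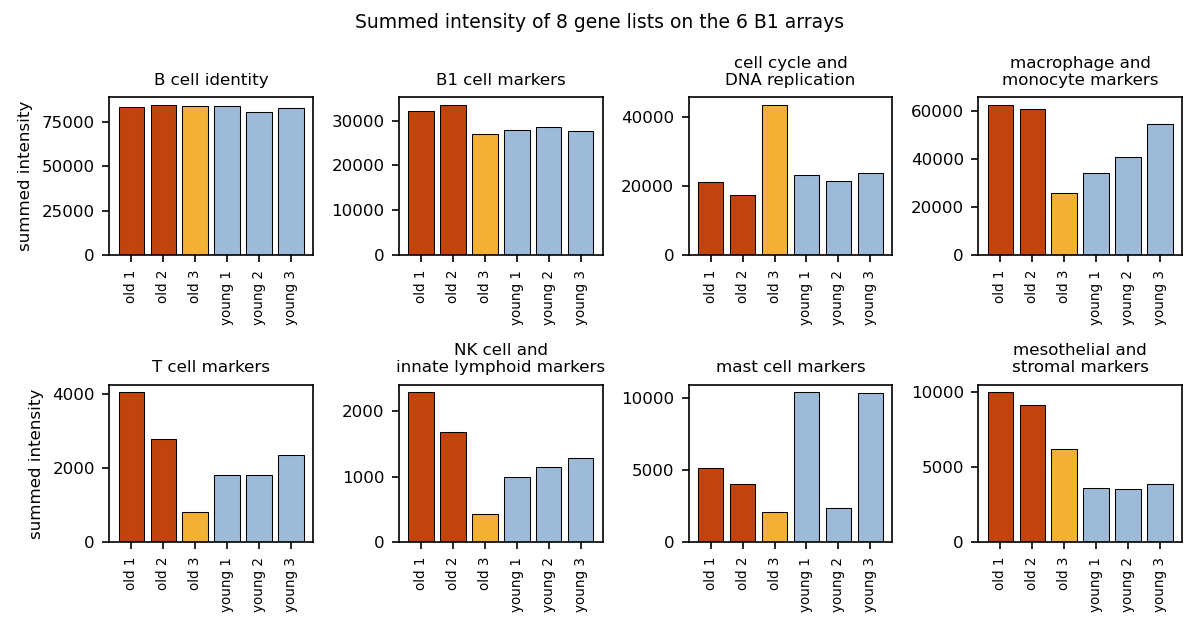
Summed linear intensity of the measured genes of 8 lists on each of the 6 B1 arrays, each panel with its own axis from 0. B cell identity genes are level across arrays, macrophage, T cell and NK cell markers are highest on old replicates 1 and 2 and lowest on old replicate 3, and the cell cycle sum is highest on old replicate 3.

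The array that stands apart was low in those markers and high in genes of dividing cells. Against the mean of old replicates 1 and 2 its median difference was -1.83 over the macrophage markers, -2.14 over the T cell markers and -1.69 over the NK cell markers. All 25 measured cell cycle and DNA replication genes were higher in it, with a median difference of 1.69. Mki67, a marker of dividing cells, was at 11.26 in replicate 3, 9.07 and 8.23 in the other old arrays and 9.63, 9.26 and 9.19 in young cells. Without replicate 3, 11 of the 25 cell cycle genes lay below all young arrays in both old arrays and 0 above. Over all genes 13.1% lay below in this way and 14.0% above. The median of the 25 without replicate 3 was -0.48, and 0 of them were called, beside 0.907% of all genes. With replicate 3 their median was 0.14, and 0 lay above and 0 below the young arrays, beside 6.14% and 7.75% of all genes. The direction of this group with age thus turned with replicate 3. B cell identity genes differed by a median of 0.00 between replicate 3 and the other old arrays. The genes furthest above the other old arrays in replicate 3 were Mup10, a major urinary protein (10.17 against 2.68 and 2.71), D13Ertd608e, En2, Pramel34, Ebf3 (11.15 against 5.25 and 5.39), Prol1, Fam216b and Speer4cos. Those furthest below were Kcnj5, Ctla2a, Gpr34, Ccl5, Pigr, Afp, Atp11a and Fscn1, and Ccl5, a chemokine of T and NK cells, was at 6.36 against 11.31 and 10.61.

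The FO and ABC arrays allowed a further comparison, since ABC against FO shares no array with old against young B1 cells. The 2 contrasts are still not independent. All 12 arrays give the spread in 1 fit, so both use the same standard error for a gene. The fit without old replicate 3 also draws on the FO and ABC arrays. A gene of small spread is more readily called in both contrasts, and the part of this in the shares of called genes below was not tested. Genes called and at least 2-fold higher in old ABC than in old FO cells numbered 886 and those at least 2-fold lower 214. Without old replicate 3, 41 of the 886 ABC-high genes were called higher in old B1 cells and 4 lower. That is 4.63% and 0.451% of the group, beside 0.605% and 0.302% of all genes, and the 41 make up 37.3% of the 110 genes called higher. The median difference of the group was 0.22, beside 0.00 over all genes, and 72.1% of its genes had a difference above 0, beside 49.9%. With all arrays 14 were called higher and 2 lower, beside 0.159% and 0.132% of all genes. The 14 are 1.58% of the group and 48.3% of the 29 genes called higher. With all arrays the median of the group was 0.10, beside -0.01 over all genes. A difference above 0 was then met by 59.7% of the group, beside 47.7%. Against the young mean the group's median was 0.26 in old replicate 1, 0.19 in replicate 2 and -0.15 in replicate 3. Of the 214 ABC-low genes 1 was called higher and 6 lower without replicate 3 (median -0.09). That is 0.467% and 2.8% of them, beside 0.605% and 0.302% of all genes. With all arrays 0 were called higher and 3 lower (median -0.21), beside 0.159% and 0.132% of all genes.

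The ABC-high genes that rose in old B1 cells with all arrays included Cubn, Met and Asph, described above. Without replicate 3 they also included Bmpr1a and Acvrl1, Tmtc2 (2.29 ± 0.33), Zcchc14 (1.91 ± 0.28), Hoxc4, a homeobox transcription factor (1.76 ± 0.31), and Tbx21. With all arrays Tmtc2 (1.78 ± 0.43), Zcchc14 (1.37 ± 0.41) and Hoxc4 (1.33 ± 0.38) had adjusted p of 0.192, 0.356 and 0.325. Those that fell included Dst, a cytoskeletal linker, at 5.75, 5.64 and 4.28 in old and 7.29 to 7.58 in young cells (-2.23 ± 0.38 with all arrays, adjusted p = 0.0449; -1.76 ± 0.27 without replicate 3, adjusted p = 0.0150). Pxylp1 also fell (-2.07 ± 0.35 with all arrays, adjusted p = 0.0453; -1.59 ± 0.21 without replicate 3, adjusted p = 0.00656). Spry2, an inhibitor of receptor tyrosine kinase signalling, was called lower without replicate 3 (-1.50 ± 0.17, adjusted p = 0.00272; -2.19 ± 0.45 with all arrays, adjusted p = 0.115). Markers of other cell types made up 40 of the 886 genes, and 13 of the 23 measured macrophage markers were among them. With these 40 left out, 846 genes remained. Without replicate 3, 41 of the 846 were called higher and 4 lower, with a median of 0.22. That is 4.85% and 0.473%, beside 0.605% and 0.302% of all genes. With all arrays 14 were higher and 2 lower (median 0.10), beside 0.159% and 0.132% of all genes. The part of other cell types in the difference was not tested.

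**Figure D4:**
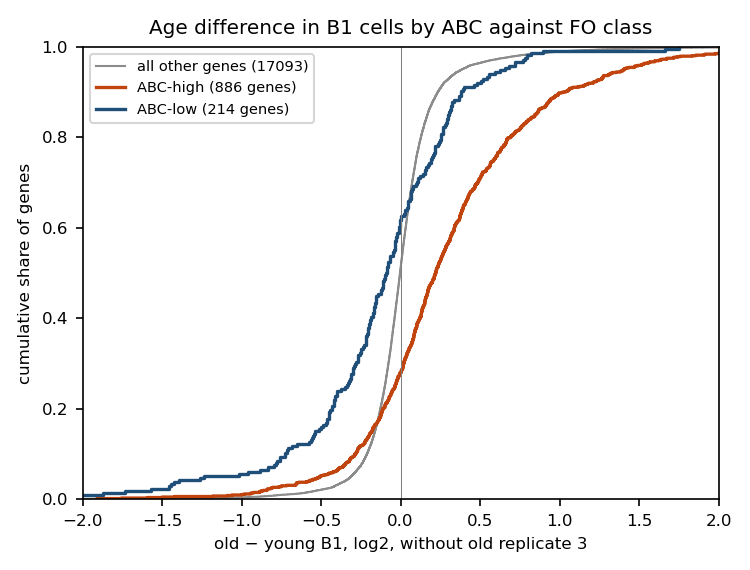
Cumulative share of genes (vertical axis) by the age difference in B1 cells without old replicate 3 (horizontal axis, log2, shown from -2 to 2), for 886 ABC-high genes, 214 ABC-low genes and the 17093 others. The ABC-high curve lies to the right with its median at 0.22, and the ABC-low curve to the left with its median at -0.09.

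Immunoglobulin genes were looked at by probe set, after the values had been seen. Of 23 immunoglobulin probe sets with a mean log2 level of at least 8 over the young arrays, 5 (21.7%) had old replicates 1 and 2 at least 1 log2 unit apart, against 43 of all 13633 probe sets at that level (0.315%). These were both probe sets of Ighg3, a constant region gene, and 1 each of Igkv6-14, Igkv6-15 and Igkv6-20, which are variable segments. The 3 young arrays spanned that much in 0 of the 23 and in 211 of the 13633 (1.55%). Another 7 probe sets, dimmer in young cells, reached a log2 level of 8 on at least 1 B1 array, which makes 30. The probe set used for Ighm, the heavy chain of IgM, was at 13.76, 13.65 and 13.40 in old and 13.55 to 13.69 in young cells. In the group of 30, 5 other probe sets annotated to Ighm were high on old replicate 2. The brightest of them was at 5.98, 9.99 and 3.43 in old and 3.99 to 4.61 in young cells. A probe set of Igkv6-14 was at 10.55, 12.53 and 10.69 in old and 10.36 to 11.07 in young cells, again highest on old replicate 2. Igkv15-103 was at 8.48, 8.25 and 10.64 in old and 10.10 to 10.48 in young cells, low on replicates 1 and 2 and not on replicate 3. A probe set of Igkv6-14, Igkv6-23 and Igkv8-19 was at 7.07, 7.02 and 6.28 in old and 8.85 to 9.12 in young cells. It was the 1 of the 30 called in a fit of all 45037 probe sets without replicate 3 (-1.93 ± 0.27, adjusted p = 0.0152; -2.18 ± 0.29 with all arrays, adjusted p = 0.0223). In the fit of 18193 genes without replicate 3, Igkv15-103 (-1.89 ± 0.33, adjusted p = 0.0310) and Iglv1 (-1.32 ± 0.25, adjusted p = 0.0422) were among the 165 called. With all arrays they were not called, at -1.14 ± 0.55 and -0.89 ± 0.35 (adjusted p = 0.676 and 0.595). Segments of a family are alike in sequence, and signals of related segments on 1 probe set cannot be separated.

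**Figure D5:**
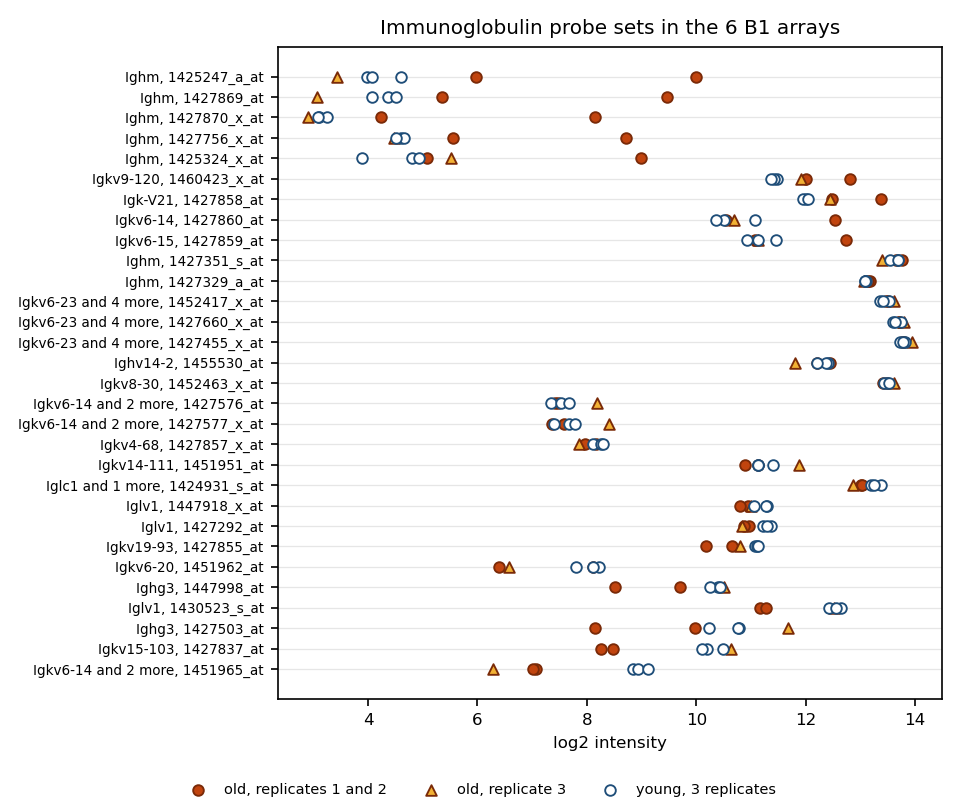
Log2 intensity of the 30 immunoglobulin probe sets on each of the 6 B1 arrays, ordered by the difference between old replicates 1 and 2 and the young arrays. Filled circles are old replicates 1 and 2, triangles old replicate 3 and open circles young arrays; young arrays lie close together in most rows, while in 10 rows the 2 filled circles are at least 1 log2 unit apart, 5 of them rows of Ighm that reach a log2 level of 8 on old replicate 2 alone.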

How the data were processed

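Affymetrix mouse arrays, 12 in 4 groups of 3, were hybridised with RNA of sorted B cells, and 6 of them hold B1 cells. The authors deposited intensity values that are not on a log scale (3.00 to 22068), and RMA and affy are named in the submitters' processing notes with no version. Beyond these names the sources used here do not describe the background correction or the summarisation, so how far dim signals are compressed is unknown.

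The log2 of each intensity was taken. Of 45037 probe sets 34945 had 1 gene symbol, 932 several and 9160 none, by a platform annotation that can be old. Each of 18193 genes was represented by the brightest of its 1-symbol probe sets, by the mean of 12 arrays, and dim probe sets were kept. The 12 arrays were fitted with 4 group means in limma 3.58.1 (R 4.3.3, lmFit and eBayes, 8 residual degrees of freedom), and again without old B1 replicate 3, with the 11 arrays left. Adjusted p values are Benjamini-Hochberg values over all genes. The procedure was tested on simulated data. The number of arrays limits the precision.

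Replicate numbers were checked for pairing: deviations from the group mean of old and young arrays of the same number correlated at -0.06, -0.02 and -0.13. These values show no pairing. The old mean includes replicate 3, which stands apart and so shapes every old deviation, and pairing can therefore not be excluded by this check. Named genes are the 15 called genes of largest difference in each direction with no overlap between groups and a higher mean at or above the median of all values, 10 more in each direction without old B1 replicate 3, the 8 genes of highest and of lowest value in that array, 8 ABC-high genes in each direction, up to 5 of lowest p in a list and a set of B cell genes. Predicted genes and clone names were passed over. The comparison, the 36 lists and the rules were chosen with earlier results of these data known. Alternatives were other limma settings, normalizations, probe set rules, thresholds and arrays left out.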

Additional observations from a re-analysis of the deposited data

How the results depend on the processing

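Of the counts with all arrays (53 genes called, 29 higher, 24 lower, 47 at least 2-fold), those under an intensity trend, a robust prior, cyclic loess, repeated quantile normalization, centring on the median or 75th percentile, the removal of dim genes, and other rules for the probe set stayed within 1.5 times of these numbers. A floor of 32 gave 31 genes called and at least 2-fold. Array weights called 316 genes (203 higher, 113 lower, 178 at least 2-fold), the 6 B1 arrays alone 2 (2, 0 and 2), and an adjusted p under 0.01 15 (9, 6 and 14). Leaving out 1 B1 array gave 17 to 165 genes, 11 to 110 higher, 6 to 55 lower and 17 to 122 at least 2-fold. Leaving out old FO replicate 2 as well as old B1 replicate 3, added after the data had been seen, gave 208 genes (143, 65 and 146). In place of the 165 genes called without old B1 replicate 3, array weights called 364 and a floor of 32 called 116, and the count was 69 to 136 with a further B1 array left out, also added later. The 3 list genes called became 1 with the 6 B1 arrays alone and 1 to 11 without 1 B1 array. Without old B1 replicate 3 and old FO replicate 2 they became 12. The 14 ABC-high genes called higher became 1 with the 6 B1 arrays alone and 5 to 41 without 1 B1 array. Without old B1 replicate 3 and old FO replicate 2 they became 54.

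The check of the replicate number showed no pairing but could not exclude it, and the fits with this number as a replicate block are reported here alone. Over the 12 arrays the block gave 32 genes called (19 higher, 13 lower, 30 at least 2-fold), and for the 6 B1 arrays alone 0 (0, 0 and 0), a fit in which few degrees of freedom remain. Without old B1 replicate 3 the block gave 109 and, for the B1 arrays alone, 285. List genes called were 2 and 0 with the block, and ABC-high genes called higher 9 and 0. Of 130 named genes 38 were called with all arrays, and under the alternatives run 0 of these changed sign. Many lost their call, however. Of the 38, 37 lost it with the 6 B1 arrays alone and 38 with the block on those arrays. A floor of 32 ended 15 of these calls, and the block over the 12 arrays 14. Of the other 92, Afp (-0.17 with all arrays) turned to 1.27 and was called without old B1 replicate 3 (adjusted p = 0.0456), also with old FO replicate 2 left out as well (1.27), and its difference without 1 B1 array ran from -0.94 to 1.27. Signal at the level of the dimmest 25 percent of probe sets limits the size of a difference, as in Osbpl6, Csrnp3 and Dnah8.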
